A study of Arabidopsis thaliana with 7 samples.

Results

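The genes described here encode basic leucine zipper (bZIP) transcription factors of Arabidopsis thaliana, followed through the development of the male gametophyte. They were the genes listed under the bZIP family in the study's catalogue of putative transcription factors. Each was matched by its locus to a probe set of the ATH1 array that is annotated to exactly 1 gene. Of the 69 family genes in the catalogue, 28 were matched in this way and the other 41 were not analysed here. Spores came from pooled plants of the accession Landsberg erecta (Ler-0) with no genetic modification, kept in controlled cabinets and given no treatment. The stages were uninucleate microspores (UNM, 2 arrays), bicellular pollen (BCP, 2 arrays), tricellular pollen (TCP, 2 arrays) and mature pollen grains (MPG, 1 array). The first 3 were separated on density gradients from inflorescences stripped of open flowers, and MPG was taken from open flowers. By the study's microscopy the BCP isolate also held microspores, tetrads and tricellular grains, and the TCP isolate held some bicellular pollen.

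The bZIP factors carry a basic region that contacts DNA and a leucine zipper through which they pair as homodimers or heterodimers, mostly on elements with an ACGT core. The Arabidopsis family has been divided into lettered groups with recognisable roles. Genes were assigned to these groups from general knowledge of that division, since none of the files used here gives them. Group A members act in abscisic acid responses and include FD, which works with the floral inducer FT. Group B members are anchored in the endoplasmic reticulum (ER) and released by proteolysis when that organelle is stressed. Groups D, G and H hold the TGA factors, the G-box binding factors and the light regulator HY5. Group I contains VIP1 and its relatives. Group S factors pair with group C factors and take part in responses to low energy. In pollen, bZIP34 of group E and bZIP18 of group I are known regulators, and loss of bZIP34 disturbs the pollen wall.

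Coverage of the groups was uneven. Of group I 9 of 10 genes were measured, of group B 2 of 3, and of groups E and F 2 of 2 each. For group A 4 of 12 genes were measured, and for group S 6 of 15. Another 3 measured genes fell in no group. No gene of groups C (4 genes), D (10), G (5) or H (2) was matched to such a probe set. Nothing is therefore said here of the group C partners of the group S factors, of the TGA factors or of HY5. The paper counts 1350 putative transcription factor genes on the array, and 419 of the 1350 in the catalogue were matched. In the annotation used, 8730 probe sets carried no gene name. A gene without a match is thus not shown to be missing from the array.

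Values are array intensities, rescaled so that the trimmed mean over the probe sets of each array was 100. A gene was called expressed at a stage when none of the arrays of that stage read below 40. The number of probe sets at or above this minimum was 10581 to 11446 on the UNM and BCP arrays, 9028 to 9542 on the TCP arrays and 9757 on the MPG array. Of the late pollen marker genes 4 of 5 were measured, and their summed intensity was 2212 to 2373 in UNM, 5060 to 6830 in BCP, 19923 to 24249 in TCP and 28201 in MPG. Most of the UNM sum came from AT5G45880 (2003 and 2133), with 195 and 228 from AT3G07820. ANX1 and ANX2 read 0.705 to 24.4 on the UNM and BCP arrays and 844 or more in TCP and MPG. The sperm histone gene HTR10, the 1 measured of 5 sperm cell markers, ran from 104 to 137 in UNM and from 2372 to 2435 in TCP, with 2897 in MPG. Of the tapetum markers 3 of 5 were measured, with a sum of 66.8 to 84.1 in UNM and 18.5 to 45.4 later, and 1 of them was bright enough to be tested. Among the 3, AMS went against the sum, with 10.9 and 13.4 in UNM and 24.4 and 22.6 in TCP, all under the minimum. The meiocyte marker SDS, 1 of 4, lay between 22.4 and 72.0, and no leaf marker was measured. From BCP to TCP HTR10 rose, SDS fell, and the tested tapetum marker (AT1G75920) was not called, although it fell from UNM to MPG (log2 change -0.94, adjusted p = 0.0168). This marker reached 40 on 1 UNM array alone (43.3), so its fall was read in part from the array that let it be tested. Its TCP values (18.8 and 3.73) and MPG value (1.41) were raised to a floor before the fit, as described below. Its changes to TCP and MPG are therefore lower bounds in size. A probe set reports the share of 1 transcript in the RNA of a whole isolate, so fewer cells of a type and less RNA per cell cannot be told apart.

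Of the 28 measured bZIP genes, 12 (42.9%) were expressed in at least 1 stage, close to the share of all measured transcription factor genes of the catalogue (181 of 419, 43.2%) and below that of all probe sets (12981 of 22746, 57.1%). These differences were not tested. The paper names bZIP among the large families that it found over-represented in the gametophyte. It used detection calls over the family members on the array, whereas the share here covers 28 genes and a minimum of 40. The 2 shares are therefore not comparable. The number expressed was 9 in UNM, 10 in BCP, 10 in TCP and 9 in MPG, which is 32.1%, 35.7%, 35.7% and 32.1% of those measured. Over all probe sets the shares were 44.6%, 44.3%, 36.6% and 42.9%, and over the transcription factor genes 27.0%, 25.5%, 27.2% and 35.3%. The criterion was easier to meet in MPG, with its 1 array, than at stages with 2. With a minimum of 80 the bZIP counts were 5, 8, 6 and 7, and without UNM array 1 the UNM count was 12. Expressed at all 4 stages were 6 genes, namely bZIP17, bZIP28, bZIP18, bZIP69, bZIP53 and bZIP60. In addition, bZIP13 and bZIP19 were expressed from UNM to TCP, bZIP52 from BCP to MPG, bZIP59 in UNM and BCP, bZIP34 in TCP and MPG, and bZIP29 in MPG. The last also read above 40 on UNM array 2 (50.8) and BCP array 1 (47.5), against 47.9 on the single MPG array. The stage with the highest mean was UNM for 2 of the 12 (bZIP17 and bZIP19), BCP for 3 (bZIP13, bZIP59 and bZIP69), TCP for 3 (bZIP28, bZIP34 and bZIP52) and MPG for 4 (bZIP18, bZIP29, bZIP53 and bZIP60).

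**Figure D1:**
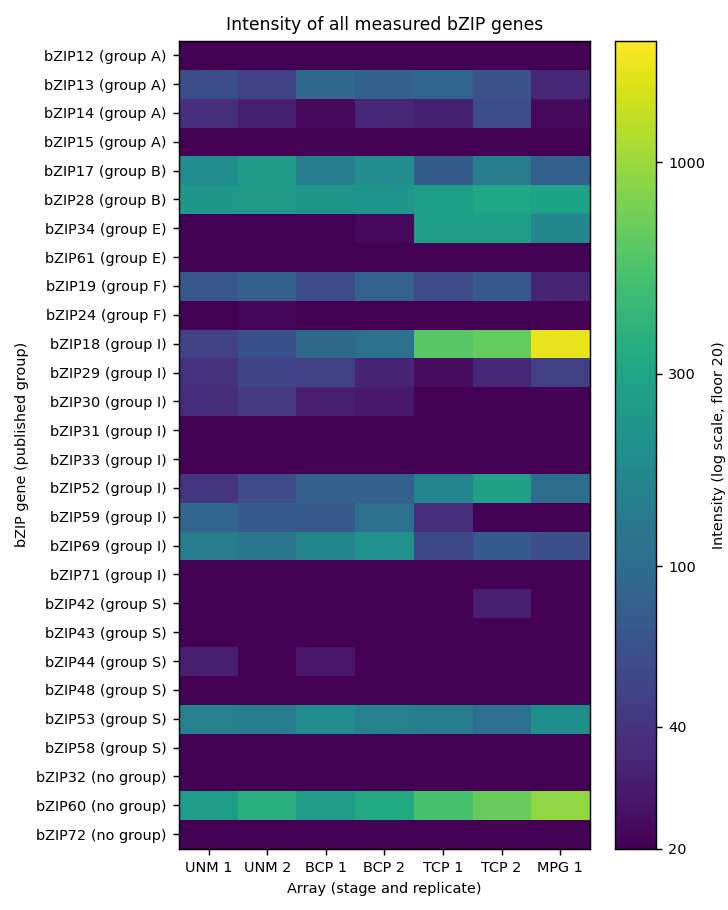
Intensity of the 28 measured bZIP genes (rows, with their published group) on the 7 arrays (columns). Colour gives the intensity on a log scale and values below 20 are drawn at 20. The rows of bZIP18, bZIP34 and bZIP60 brighten from BCP to TCP, and 14 rows stay below 40 on every array.

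The stages were compared in 1 limma fit over all 14364 probe sets that reached 40 on at least 1 array, which included 14 of the 28 bZIP genes. A change is the difference between stage means of log2 intensity, with values below 20 raised to 20, and a gene was said to rise or fall when its Benjamini-Hochberg adjusted p was under 0.05. A fold is 2 to the power of that change, a ratio of geometric means. Where 1 or more arrays of the lower stage lay under the floor, raising them made the fold smaller, and it is given as a lower bound on that ratio. The p-values rest on how far replicate arrays, made from plants grown independently, differed. Arrays raised to the floor no longer differ from each other, so for genes with such arrays the SE and p-value also depend on the floor. For bZIP34 from BCP to TCP the SE was 0.17 with the floor of 20, 0.32 with a floor of 10 and 0.039 with a floor of 40. The MPG value rests on 1 array, which was assumed to vary like the others, so no difference involving MPG has a replicate check of its own.

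Between bicellular and tricellular pollen, the step between neighbouring stages with the most calls, bZIP34, bZIP18, bZIP52 and bZIP60 rose and bZIP59, bZIP69 and bZIP30 fell. That made 4 of 14 rising and 3 of 14 falling, where 19.0% of all probe sets rose, 37.5% fell and 56.5% did either. The median change of the tested bZIP genes was -0.19 on the log2 scale, of the 214 tested transcription factor genes 0.01, and of all probe sets -0.33. Among those transcription factor genes 52 (24.3%) rose and 45 (21.0%) fell. Quantile normalization moved the median of all probe sets to 0.01 and split the calls into 3812 rising and 4262 falling, in place of 2726 and 5391, with 3 bZIP genes rising and 2 falling of 13 tested. Without any 1 of the 6 arrays of UNM, BCP and TCP, between 3 and 6 bZIP genes were called, 4 without either BCP array and 3 without TCP array 2.

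From microspores to bicellular pollen no bZIP gene passed the threshold. In that comparison 2.53% of all probe sets were called, 2.03% rising and 0.494% falling. An unadjusted p under 0.05 was found for 3 of the 14 bZIP genes and for 2274 of all 14364 probe sets. The 3 bZIP genes were bZIP18 (log2 change 0.93, adjusted p = 0.0883), bZIP13 (0.72, adjusted p = 0.242) and bZIP30 (-0.47, adjusted p = 0.279). With the replicate number as a block, bZIP18 was called as a rise (adjusted p = 0.0482), as it was with a filter at 80 (0.0459). The count over all probe sets fell from 363 to 0 when any 1 of the 6 arrays of UNM, BCP or TCP was left out.

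From tricellular to mature pollen 1 bZIP gene, bZIP18, rose and none fell, where 5.02% of all probe sets rose, 7.43% fell and 12.4% did either. A total of 6 of the 14 bZIP genes had an unadjusted p under 0.05, as had 4220 of all 14364 probe sets. With the replicate block 3 bZIP genes were called, beside 2580 of all probe sets. The bZIP calls added were bZIP60 as a rise and bZIP13 as a fall. Leaving out either TCP array left 0 probe sets called of 1788, bZIP18 among those lost, and leaving out UNM array 1 or 2 left 312 and 490 without bZIP18. Without BCP array 1 or 2 there were 938 and 951 calls, bZIP18 included.

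Across the whole course, from microspores to mature pollen, bZIP18, bZIP34 and bZIP60 rose, and bZIP59, bZIP17, bZIP19, bZIP69 and bZIP30 fell. These are 3 rising and 5 falling genes of 14, where 20.1% of all probe sets rose, 40.4% fell and 60.5% did either. Of the falling genes, bZIP30 was tested only because UNM array 2 reached 40, and bZIP59 reached 40 on the UNM and BCP arrays alone. The rising bZIP34 reached 40 on the TCP and MPG arrays alone. Each of these genes was thus tested only through stages where it was high. For bZIP59 and bZIP34 this also holds for the calls from BCP to TCP. The median change was -0.24 for the bZIP genes, 0.17 for the tested transcription factor genes and -0.53 for all probe sets. Of the 214 transcription factor genes 58 (27.1%) rose and 47 (21.96%) fell. Quantile normalization moved the median of all probe sets to -0.15 with 3778 rising and 4756 falling of 14522 probe sets in place of 2880 and 5808, and turned the balance among the bZIP genes to 5 rising and 2 falling of 13 tested. The calls added were rises of bZIP52 and bZIP53, the falls of bZIP17 and bZIP69 were lost, and bZIP30 stayed under the minimum and was not tested. Without UNM array 1 or 2 the bZIP genes called were 5 and 4, in place of 8.

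**Figure D2:**
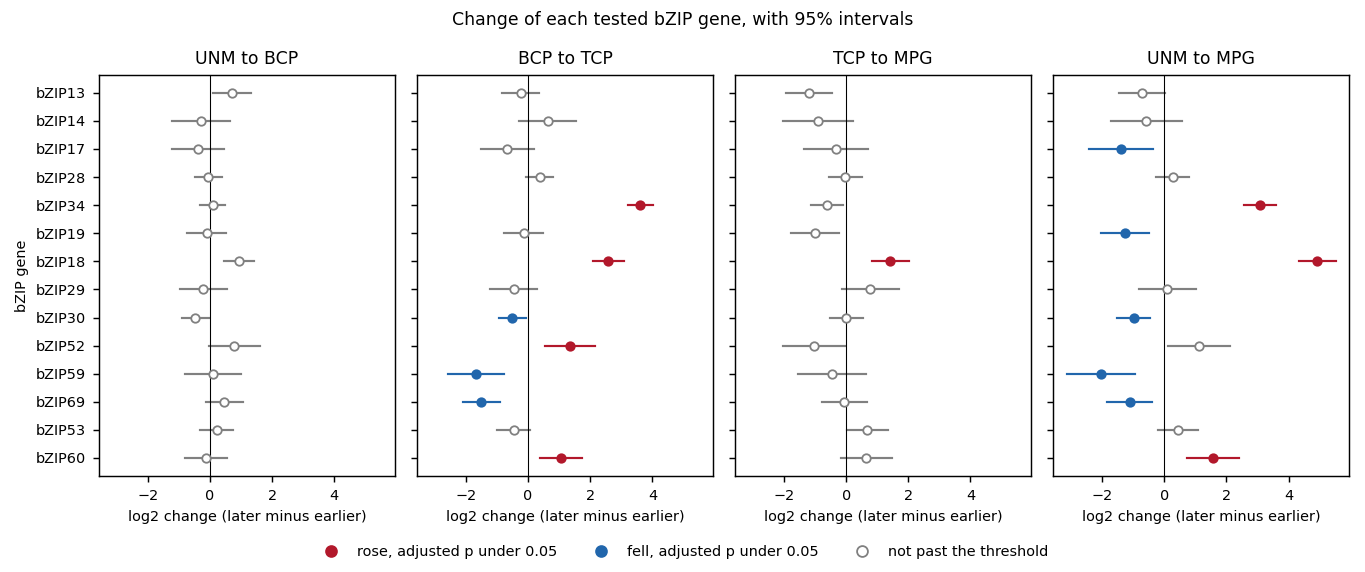
Log2 change in intensity of each of the 14 tested bZIP genes in the 4 comparisons (later stage minus earlier stage). Points are limma estimates and lines their 95% intervals, with filled points for an adjusted p under 0.05. The widest spread of changes is seen from BCP to TCP and from UNM to MPG, where bZIP18 reaches 4.93 and bZIP59 -2.05.

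**Figure D3:**
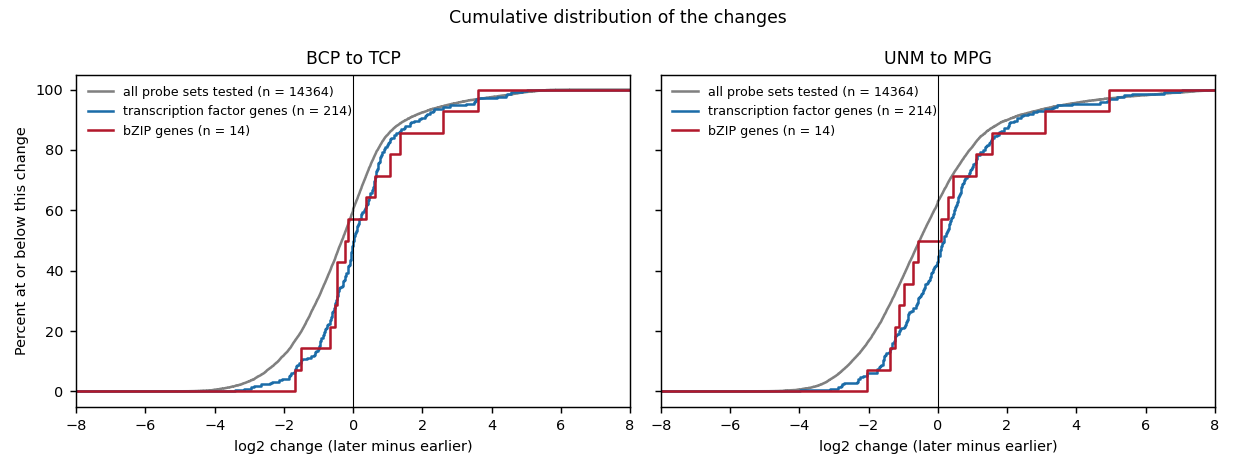
Cumulative percent of genes (vertical axis) at or below each log2 change in intensity (horizontal axis) from BCP to TCP and from UNM to MPG. The step lines are the 14 tested bZIP genes and the 214 tested transcription factor genes, and the smooth line is all 14364 probe sets. The medians from BCP to TCP are -0.19 for the bZIP genes and -0.33 for all probe sets.

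**Figure D4:**
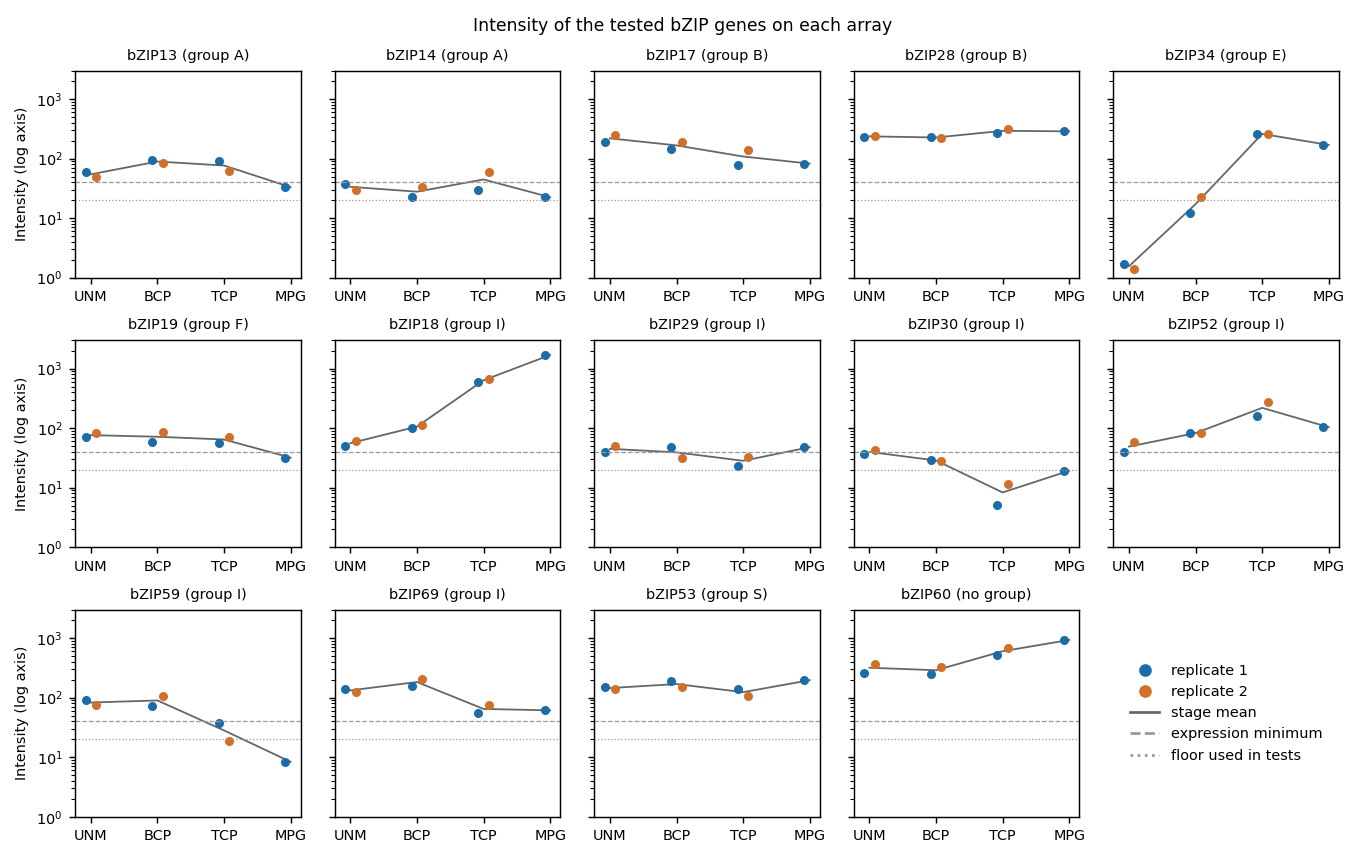
Intensity (log axis) of the 14 tested bZIP genes at the 4 stages. Points are single arrays, coloured by replicate number, and the line joins stage means; the dashed line marks the expression minimum of 40 and the dotted line the floor of 20. The points of bZIP18 climb from 49.8 to 1692, those of bZIP28 stay between 224 and 318, and those of bZIP59 drop to 8.36.

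Group I gave the largest number of expressed genes, 5 of the 9 measured. Of these bZIP18 and bZIP52 rose from BCP to TCP, bZIP69 and bZIP59 fell, and bZIP29 was called in no comparison. Among them bZIP18 (AT2G40620, chromosome 2), a pollen-expressed factor, had the largest log2 change of the family over the whole course, although for bZIP34 only a lower bound is known. Its intensity was 49.8 and 61.7 in UNM, 99.2 and 113 in BCP, 603 and 670.0 in TCP, and 1692 in MPG. The arrays of each stage lay above every array of the stage before. From BCP to TCP bZIP18 rose 6.0-fold (log2 change 2.58, SE 0.20, adjusted p = 0.000185). From TCP to MPG the rise was 2.66-fold (1.41, SE 0.24, adjusted p = 0.0236), and from UNM to MPG it was 30.5-fold (4.93, SE 0.24, adjusted p = 6.49e-05). The step from TCP to MPG kept its size with 1 array left out, but not always its call. It was 1.41 without UNM array 1 (adjusted p = 0.0547) or UNM array 2 (0.0523), 1.34 without TCP array 1 (0.0982) and 1.49 without TCP array 2 (0.0893). The late pollen markers rose in the same interval, with 4 of 4 measured genes past the threshold from BCP to TCP. Their part in the values of the bZIP genes was not tested.

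A related group I gene, bZIP52 (AT1G06850, chromosome 1), rose to a maximum in tricellular pollen. It read 39.97 and 58.0 in UNM, 82.7 and 82.5 in BCP, 158 and 279.8 in TCP, and 104 in MPG. Both TCP arrays exceeded all the others, and the second of them stood well above the first. The rise from BCP to TCP was 2.55-fold (log2 change 1.35, SE 0.33, adjusted p = 0.0154). It was no longer called without BCP array 1 (adjusted p = 0.0729), BCP array 2 (0.0725) or TCP array 2 (0.94 on the log2 scale, adjusted p = 0.0784), nor when dim probe sets were kept (0.0872). Mature pollen lay between BCP and TCP, with a difference from TCP of -1.02 (adjusted p = 0.162). The difference of 1.11 from UNM to MPG had an adjusted p of 0.0568, and of 0.0149 with the replicate block, where the change was 1.33. It was also called after quantile normalization (1.60, adjusted p = 0.0103), with a filter at 80 (0.0347), and without TCP array 1 (0.0471) or TCP array 2 (0.0465).

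Decline characterised another pair of group I genes. Intensities of bZIP69 (AT1G06070, chromosome 1) were 140.4 and 125 in UNM, 159 and 207 in BCP, 54.6 and 74.7 in TCP, and 61.2 in MPG. All 4 UNM and BCP arrays lay above the 3 later ones, and the gene remained expressed to maturity. It fell 2.84-fold from BCP to TCP (log2 change -1.51, SE 0.24, adjusted p = 0.00293) and 2.16-fold from UNM to MPG (-1.11, SE 0.29, adjusted p = 0.0193). The second fall was not called without UNM array 1 (adjusted p = 0.0775) or UNM array 2 (0.0510), nor after quantile normalization (-0.61, adjusted p = 0.124) or with dim probe sets kept (0.0656).

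The other, bZIP59 (AT2G31370, chromosome 2), declined further and was not expressed in the late stages. Its values were 89.6 and 76.1 in UNM, 71.9 and 108 in BCP, 37.5 and 18.9 in TCP, and 8.36 in MPG. No late array reached the lowest early one. With TCP array 2 raised to the floor, the fall from BCP to TCP was 3.21-fold (log2 change -1.68, SE 0.36, adjusted p = 0.00944) and the fall from UNM to MPG was at least 4.13-fold (-2.05, SE 0.44, adjusted p = 0.00925). The first was lost without BCP array 2 (-1.39, adjusted p = 0.0611) or TCP array 2 (-1.23, adjusted p = 0.0579), and the second without UNM array 1 (-1.93, adjusted p = 0.0528). Both were lost when dim probe sets were kept, with adjusted p of 0.0685 and 0.0628.

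The remaining tested genes of group I were dim. Intensities of bZIP30 (AT2G21230) were 36.6 and 43.1 in UNM, 29.6 and 27.7 in BCP, 5.14 and 11.5 in TCP, and 19.2 in MPG, so that it met the criterion for expression at no stage. It passed the filter through UNM array 2 alone, so its fall from UNM to MPG was read in part from the array that let it be tested. Every UNM and BCP array lay above the TCP and MPG arrays. The fall from BCP to TCP was at least 1.43-fold (log2 change -0.52, SE 0.18, adjusted p = 0.0482) and from UNM to MPG at least 1.98-fold (-0.99, SE 0.21, adjusted p = 0.00942). With a floor of 40 neither was called, and the first was lost in each of the 5 fits with 1 array left out that still tested the gene (adjusted p = 0.0501 to 0.135). For bZIP29 (AT4G38900) the values were 39.2 and 50.8 in UNM, 47.5 and 30.9 in BCP, 23.4 and 33.2 in TCP, and 47.9 in MPG. Its UNM and BCP arrays overlapped each other and straddled the minimum, and no difference was called.

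In group E, bZIP34 (AT2G42380, chromosome 2), the pollen regulator whose loss disturbs the pollen wall, went from near zero to a strong signal. It read 1.71 and 1.41 in UNM, 12.0 and 22.4 in BCP, 258 and 261 in TCP, and 169 in MPG. The 2 TCP arrays lay close together, the MPG array lay below them, and no early array reached the minimum. The rise from BCP to TCP was at least 12.3-fold (log2 change 3.62, SE 0.17, adjusted p = 6.52e-05) and that from UNM to MPG at least 8.47-fold (3.08, SE 0.20, adjusted p = 0.000144). Both were called under every setting and with each UNM, BCP or TCP array left out. The MPG array was never left out, so that check does not reach the array on which the second rise rests. The difference from TCP to MPG was -0.62 (SE 0.20, adjusted p = 0.109), and it was called as a fall with a floor of 40 (adjusted p = 0.00799) or with dim probe sets kept (0.0401). The maximum of bZIP34 in tricellular pollen thus differed in these values from the continued rise of bZIP18, with log2 changes from TCP to MPG of -0.62 and 1.41, a contrast between the genes that was not tested. The second group E gene, bZIP61 (AT3G58120), ranged from 0.805 to 4.23 and was not tested.

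The 3 measured factors of the ER stress response, bZIP28, bZIP17 and bZIP60, were each expressed at every stage, with different courses. In the membrane-anchored group B, bZIP28 (AT3G10800, chromosome 3) held a nearly level signal. Its intensity was 233 and 239.5 in UNM, 229 and 224 in BCP, 267 and 318 in TCP, and 287 in MPG. The TCP and MPG arrays lay above the earlier ones by small margins, with a change of 0.37 from BCP to TCP (95% interval -0.07 to 0.80, adjusted p = 0.126) that was called as a rise with a floor of 40 (adjusted p = 0.0457). From UNM to MPG the change was 0.28 (95% interval -0.25 to 0.81, adjusted p = 0.306).

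The other measured gene of group B, bZIP17 (AT2G40950, chromosome 2), declined. It gave 189 and 248 in UNM, 143 and 191 in BCP, 77.3 and 139.6 in TCP, and 82.3 in MPG. The UNM arrays overlapped those of BCP, while the TCP and MPG arrays lay below both. From UNM to MPG bZIP17 fell 2.63-fold (log2 change -1.40, SE 0.42, adjusted p = 0.0300), and the change from BCP to TCP was -0.67 (SE 0.34, adjusted p = 0.149). With the replicate block the latter was called as well (adjusted p = 0.0287), and bZIP17 was higher on array 2 at all 3 stages with 2 arrays. Without the block the UNM and TCP means average arrays 1 and 2, whereas MPG had an array numbered 1 only. The change from TCP to MPG was -0.34 without the block and -0.06 with it. The fall from UNM to MPG was lost without UNM array 1 (-1.59, adjusted p = 0.0649), UNM array 2 (-1.20, adjusted p = 0.116), BCP array 1 (0.0521) or BCP array 2 (0.0517). It was also lost with a floor of 40 (0.0658), with quantile normalization (-0.95, adjusted p = 0.0940) and with dim probe sets kept (0.125).

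The ER stress factor bZIP60 (AT1G42990, chromosome 1), whose mRNA is spliced by IRE1, increased. Values were 264 and 372 in UNM, 248 and 329 in BCP, 520.2 and 685 in TCP, and 932 in MPG. All TCP and MPG arrays lay above all earlier arrays. It rose 2.09-fold from BCP to TCP (log2 change 1.06, SE 0.27, adjusted p = 0.0183) and 2.97-fold from UNM to MPG (1.57, SE 0.33, adjusted p = 0.00862). The difference of 0.64 from TCP to MPG had an adjusted p of 0.272, and of 0.0420 with the replicate block, where it was 0.86. The rise from BCP to TCP was lost without BCP array 1 (0.86, adjusted p = 0.0954), TCP array 1 (1.26, adjusted p = 0.0567) or TCP array 2 (0.86, adjusted p = 0.123). Quantile normalization (adjusted p = 0.0518) and keeping dim probe sets (0.0818) also ended that call. The sources used here do not tell whether its probe set separates spliced from unspliced mRNA.

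Of 16 other genes of the ER stress pathway 3 were measured, and all were tested. The Golgi protease S1P, which makes the first cut in the membrane-anchored factors, read 135 and 158 in UNM, 148 and 157 in BCP, 76.0 and 103 in TCP, and 50.0 in MPG. It fell 2.92-fold from UNM to MPG (log2 change -1.55, SE 0.27, adjusted p = 0.00390) and 1.72-fold from BCP to TCP (-0.78, SE 0.22, adjusted p = 0.0246). The latter was not called after quantile normalization (-0.30, adjusted p = 0.257), with dim probe sets kept (0.0674), or without BCP array 1 (0.0749), BCP array 2 (0.0938) or TCP array 1 (0.0786). The ER co-chaperone gene ERDJ3B gave 705 and 559.7 in UNM, 889 and 763 in BCP, 1237 and 1160.2 in TCP, and 2109 in MPG. It rose 3.36-fold from UNM to MPG (1.75, SE 0.24, adjusted p = 0.00173), and its change from BCP to TCP was 0.54 (adjusted p = 0.0618, and 0.0308 with the replicate block). Quantile normalization reduced these changes to 1.06 (adjusted p = 0.0102) and 0.14 (adjusted p = 0.529). S2P, the protease of the second cut, lay between 104 and 159 on all 7 arrays. Over the list, 0 genes rose and 1 fell from BCP to TCP, and 1 rose and 1 fell from UNM to MPG.

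Of the 6 measured genes of group S, 1 was expressed, bZIP53. This factor (AT3G62420, chromosome 3), which acts in seed maturation and in low energy responses, read 149 and 141 in UNM, 188 and 151 in BCP, 139.7 and 108 in TCP, and 197 in MPG. The MPG array was the highest and TCP array 2 the lowest, and no change was called. From BCP to TCP it was -0.46 (95% interval -0.99 to 0.08, adjusted p = 0.123), and from UNM to MPG 0.44 (95% interval -0.21 to 1.09, adjusted p = 0.200), which quantile normalization turned into a called rise (0.85, adjusted p = 0.0300). The other measured genes of the group, bZIP42, bZIP43, bZIP44, bZIP48 and bZIP58, were not tested. The highest value of any of them was 29.5.

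SnRK1, the low energy kinase upstream of group S and C factors, was represented by 2 of 12 listed genes, both of them beta subunits, and neither passed the threshold in any comparison. AKINBETA1 read 135 and 157 in UNM, 134 and 162 in BCP, 186 and 263 in TCP, and 203 in MPG. Its TCP and MPG arrays lay above the earlier ones, with a change of 0.59 from BCP to TCP (adjusted p = 0.0828, and 0.0263 with the replicate block) and of 0.48 from UNM to MPG (adjusted p = 0.207). With the block the second was 0.64 (adjusted p = 0.0425). Quantile normalization called both as rises, with 0.81 (adjusted p = 0.0303) and 0.87 (adjusted p = 0.0435). AKINBETA2 read 145 and 154 in UNM, 163 and 136 in BCP, 116 and 87.0 in TCP, and 95.7 in MPG. Here the late arrays lay below the early ones, with changes of -0.57 from BCP to TCP (adjusted p = 0.0662, and 0.0453 with the block) and of -0.64 from UNM to MPG (adjusted p = 0.0789, and 0.0425 with the block). After quantile normalization they were -0.13 (adjusted p = 0.617) and -0.12 (adjusted p = 0.712).

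In group A the 1 expressed gene was bZIP13 (AT5G44080, chromosome 5), brightest in bicellular and tricellular pollen. Its intensity was 60.2 and 48.9 in UNM, 95.8 and 82.8 in BCP, 90.0 and 62.9 in TCP, and 33.1 in MPG. Both BCP arrays exceeded both UNM arrays, and the MPG array was the lowest of all. No change was called in the fit without a block. The change from TCP to MPG was -1.18 (SE 0.30, adjusted p = 0.0584), and with the replicate block it was called as a fall (-1.35, adjusted p = 0.0211), as it was with a filter at 80 (0.0317). The change from UNM to MPG was -0.71 (adjusted p = 0.0869), and with the block it was called too (-0.88, adjusted p = 0.0160).

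FD (bZIP14, AT4G35900) passed the filter through a single array. It read 37.1 and 30.1 in UNM, 22.5 and 33.1 in BCP, 30.1 and 59.1 in TCP, and 22.5 in MPG. The UNM, BCP and TCP arrays overlapped, the gene was expressed at no stage, and no change was called. EEL (bZIP12) and bZIP15, also of group A, were not tested. None of 21 listed abscisic acid signaling genes was matched to a named probe set, so no partner of group A could be set beside these values. Whether unnamed probe sets on the array report them was not examined.

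The zinc deficiency regulator bZIP19 of group F (AT4G35040, chromosome 4) was expressed up to tricellular pollen. It gave 69.8 and 82.7 in UNM, 58.5 and 84.8 in BCP, 56.8 and 71.9 in TCP, and 31.9 in MPG. The 6 earlier arrays overlapped between stages and the MPG array lay below all of them. From UNM to MPG bZIP19 fell 2.38-fold (log2 change -1.25, SE 0.31, adjusted p = 0.0158), and the change from TCP to MPG was -1.001 (SE 0.31, adjusted p = 0.0962), called as a fall after quantile normalization (-1.21, adjusted p = 0.0449). The gene was higher on array 2 at all 3 stages with 2 arrays, and with the replicate block its change from TCP to MPG was -0.81. The fall from UNM to MPG was not called without UNM array 2 (-1.13, adjusted p = 0.0670), with a floor of 40 (-0.93, adjusted p = 0.0666) or with dim probe sets kept (0.0638). The related bZIP24 read 12.1 and 21.8 in UNM and no more than 7.55 on any later array, and was not tested. Of 10 listed zinc deficiency genes ZIP9 alone was measured, and it stayed under 40 on all arrays (11.9 to 34.4).

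Among the other lists, the TGA partners (4 of 9 measured: NPR2, ROXY1, ROXY2 and GRX480) did not exceed 31.7 and were not tested, and none of 6 listed light signaling genes was measured. The 14 bZIP genes that were not tested ranged from 0.303 to 29.5 over all arrays. Besides those already named they included bZIP31, bZIP33 and bZIP71 of group I, of which bZIP31 (AT2G13150) read 17.2 and 19.6 in TCP and 1.21 to 3.42 elsewhere, all under the floor. The ungrouped genes bZIP32, annotated as a pseudogene, and bZIP72 read no more than 2.62. A low intensity shows that the probe set gave little signal in these isolates and not that the mRNA was absent.

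Replicate arrays of a stage differed moderately. Among the expressed bZIP genes the median ratio between the 2 arrays was 1.19-fold in UNM, 1.27-fold in BCP and 1.31-fold in TCP, with maxima of 1.41, 1.497 and 1.81, and 0 genes differed over 2-fold. For all expressed probe sets the medians were 1.18, 1.19 and 1.16. Array 2 gave the higher value at all 3 stages for bZIP17, bZIP19, bZIP18 and bZIP60, and the lower value at all 3 for bZIP13 and bZIP53. The arrays numbered 2 also stood apart in the GAPDH control, where the log2 ratio of the 3′ to the 5′ probe set was 2.76 to 3.19, against 0.63 to 1.06 on the arrays numbered 1 and 1.21 in MPG. In the actin control the same ratio moved with stage, from 1.60 to 1.79 on the UNM and BCP arrays to between -2.25 and -1.85 on the TCP and MPG arrays, the step between neighbouring stages with the most bZIP calls. The part of these controls in the bZIP values was not tested. The following differences between stages passed the threshold under all settings and with each UNM, BCP or TCP array left out. From BCP to TCP they were those of bZIP34, bZIP18 and bZIP69. From UNM to MPG they were those of bZIP34, bZIP18 and bZIP60. The MPG array was never left out, so the differences from UNM to MPG have no such check of that array.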

How the data were processed

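Total RNA of isolated spores was labelled by the authors and hybridized to Affymetrix ATH1 arrays with independently grown populations as replicates. For every array the authors deposited linear intensity values, 1 for each probe set, without detection calls. The study's methods describe model-based values from dChip over a larger set of arrays, whereas for the deposited intensities the software was not given in the sources used here. Each array held 22810 values. After removal of 64 control probe sets, the remaining 22746 were rescaled to a 2% trimmed mean of 100 (factors 1.0057 to 1.0084). Values under 20 were raised to 20 before log2. Probe sets with at least 40 on at least 1 array (14364) were tested with limma 3.58.1 in R 4.3.3 on all 7 arrays, by stage, the p-values of each of the 4 comparisons being adjusted on their own (Benjamini-Hochberg, threshold 0.05). The fit had 3 residual and 2.77 prior degrees of freedom and was checked on simulated data. The number of arrays limits the precision.

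Probe sets were named through the array annotation and the RefSeq gene table of TAIR10.1. Of them 13513 had 1 gene (13484 with a locus), 503 several and 8730 none. No bZIP gene had more than 1 probe set, and levels of different probe sets were not compared. Every measured bZIP gene is named, with all its values if expressed. Of the partner and target lists (ER stress, SnRK1 and low energy, TGA partners, abscisic acid signaling, light, zinc deficiency) at most 3 tested genes with the largest changes are named. The lists of late pollen, sperm cell, tapetum, meiocyte and leaf markers were used to describe the stages. The bZIP genes, the lists and the tests were chosen with earlier results of these data known, so the markers are no independent check of the stages.

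Samples were grouped by their titles, which also number the replicates. Deviations of same-numbered arrays from their stage means correlated at r = 0.44 (UNM and BCP), 0.22 (UNM and TCP) and 0.28 (BCP and TCP) over the 14364 tested probe sets, a correlation across genes that are not independent of each other. The numbers were therefore taken to pair the arrays in the fit with a replicate block. That the single MPG array, numbered 1, belongs with the other arrays of that number is an assumption that could not be checked, and blocked values involving MPG rest on it. The main fit had no replicate block and so left this pairing out, and values with the block are given where they change a call. With the block 1 bZIP gene was called from UNM to BCP and 8 from BCP to TCP, in place of 0 and 7. From TCP to MPG there were 3 and from UNM to MPG 10, in place of 1 and 8. Over all probe sets the block gave 501, 8999, 2580 and 9416 calls in these 4 comparisons, in place of 363, 8117, 1788 and 8688. The alternatives were floors of 40 and 10, quantile normalization, no filter, a filter at 80, an expression minimum of 80, the block, and leaving out each UNM, BCP and TCP array.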

Additional observations from a re-analysis of the deposited data

How the results depend on the processing

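Over the single bZIP changes that passed the threshold, 147 of the values under an alternative kept the call, 39 lost it and 0 changed direction; over those that did not pass, 17 passed under an alternative and 19 changed sign. The number of bZIP genes called from UNM to BCP was 1 in place of 0 with a filter at 80 or with the replicate block. From BCP to TCP it was 4 in place of 7 with no filter on dim probe sets, and 3 to 6 with 1 array left out. From TCP to MPG it was 2 in place of 1 with a floor of 40, quantile normalization, no filter or a filter at 80, 3 with the replicate block and 0 to 1 with 1 array left out. From UNM to MPG it was 5 in place of 8 with a floor of 40, 4 with no filter, and 4 to 9 with 1 array left out. Over all probe sets the calls with 1 array left out were 0 in every case in place of 363 from UNM to BCP and 0 to 951 in place of 1788 from TCP to MPG. With an expression minimum of 80 the bZIP genes expressed were 5 in UNM and 6 in TCP, in place of 9 and 10. Fewer arrays entered the fits with 1 left out, and quantile normalization, no filter and a filter at 80 changed the number of probe sets adjusted over. The floor of 40 and the block kept all 7 arrays and the same 14364 probe sets. Why the counts changed was not tested. Pairing by the replicate block changed the calls of bZIP18, bZIP17, bZIP13, bZIP60 and bZIP52 given above, and no other bZIP call. The sign changes all concerned changes that were not called. With 1 array left out the UNM to BCP changes ranged from -0.38 to 0.16 for bZIP19, -0.53 to 0.090 for bZIP29, -0.20 to 0.38 for bZIP59 and -0.38 to 0.11 for bZIP60. Those from BCP to TCP ranged from -0.50 to 0.015 for bZIP13 and -0.41 to 0.13 for bZIP19, and quantile normalization gave 0.27 and 0.36. Those from TCP to MPG ranged from -0.76 to 0.091 for bZIP17, -0.15 to 0.10 for bZIP28 and -0.29 to 0.16 for bZIP69. There bZIP28 was 0.13 after quantile normalization and 0.020 with the block, and bZIP69 was 0.047 with the block. From UNM to MPG bZIP29 ranged from -0.085 to 0.29. Values near or under the floor of 20, as for bZIP34 before TCP and bZIP30 and bZIP59 after BCP, bound the size of a change and have no order among themselves.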
